A study of Mus with 96 samples.

Results

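The 10 genes described here mark the macrophages of the mouse liver. They were taken by name from the gene counts of whole liver and fall into 3 classes. Clec4f, Timd4, Vsig4 and Marco mark Kupffer cells, Trem2, Gpnmb and Ccr2 mark recruited or lipid-associated macrophages, and Adgre1, Cd68 and Lyz2 are expressed by macrophages in general. They are 10 of the 55487 genes in the count table. All 10 were among the 15548 genes that passed the filter of at least 100 counts summed over the 96 libraries.

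Kupffer cells are the resident macrophages of the liver. They lie in the sinusoids, clear particles, complement-coated microbes and dying cells from the blood, and renew themselves largely in place. When the liver is injured or loaded with fat, monocytes enter from the blood, drawn in part by the chemokine receptor CCR2, and mature into macrophages. Those that gather where lipid accumulates are known for TREM2, GPNMB and a set of lysosomal and lipid-handling genes.

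RNA from the liver of 96 mice, 1 library each, was measured by bulk RNA barcoding and sequencing (BRB-seq), which counts reads from the 3′ ends of transcripts. Hep-Bmal1KO mice carried floxed alleles of the clock gene Bmal1 and a Cre recombinase driven by the albumin promoter, which is active in hepatocytes, and Hep-Bmal1WT mice were littermates with the same floxed alleles and no Cre. All mice were C57BL/6J, 8 to 10 weeks old and of either sex, kept under 12 h of light, and fed chow or cdHFD, a high-fat diet that lacks choline, for 2 weeks. Livers were taken every 4 h at 6 zeitgeber times (ZT, hours after lights on), with 4 mice for each genotype, diet and ZT, which gives 24 libraries for each of the 4 groups of genotype and diet.

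The libraries held 1861740 to 9718615 reads on genes (median 6412078). Levels are given as CPM, the counts scaled to a common library size after TMM normalization, and they are compared between libraries for 1 gene, never between genes. Hepatocyte markers were abundant, as the label liver implies, with 10 of them taking a median 15.5% of the CPM in Hep-Bmal1WT on chow. Where the 3′ reads of the Bmal1 gene (Arntl) lie relative to its floxed part was not examined, so its level is given without reading the deletion from it. Arntl had medians of 7.21 and 7.17 CPM on chow and cdHFD in Hep-Bmal1WT and of 7.55 and 5.70 CPM in Hep-Bmal1KO, with overlapping ranges on both diets (adjusted p = 0.98 and 0.10 between genotypes). In 7 libraries both the clock genes and the other genotype-dependent genes lay nearer to the other genotype than to the label: 2 in Hep-Bmal1WT on chow, 2 in Hep-Bmal1WT on cdHFD, 2 in Hep-Bmal1KO on chow and 1 in Hep-Bmal1KO on cdHFD. Results on genotype are therefore given with and without these 7 libraries. They were found by genotype-dependent genes of these same data, so leaving them out raises genotype differences by construction and is no independent check. In 1 further library the sex-linked genes went against the labelled sex. Each of the 12 columns of the sequencing plate held libraries of 1 group only, so position on the plate and group cannot be told apart.

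The largest differences were between the diets, and the recruited and lipid-associated genes had the largest folds among the 10. Within Hep-Bmal1WT all 10 genes were higher on cdHFD than on chow at an adjusted p under 0.05 (edgeR quasi-likelihood test, Benjamini-Hochberg adjustment over all 15548 genes), against 28.7% of all genes higher and 27.0% lower. Within Hep-Bmal1KO all 10 were higher too, against 32.4% of all genes higher and 29.6% lower. In each genotype the mean of each of the 10 genes was higher on cdHFD at 6 of 6 ZTs. In whole liver, more cells of a type and more RNA per cell cannot be told apart.

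**Figure D1:**
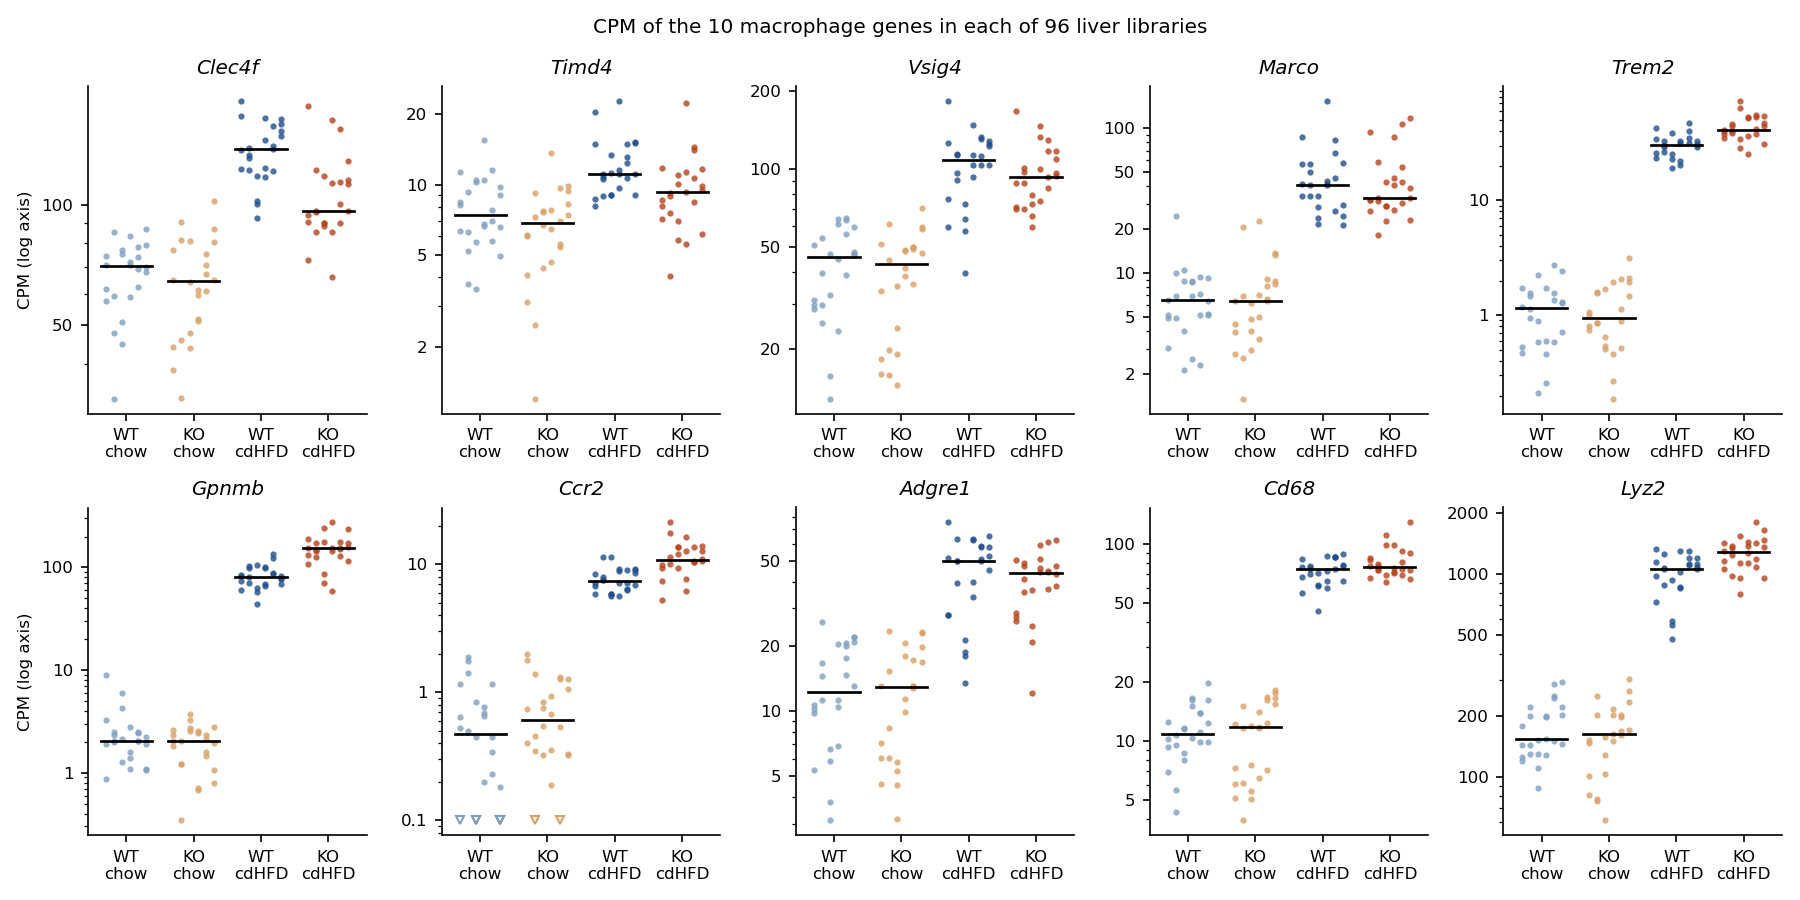
Level of each of the 10 genes in each of the 96 libraries (CPM, log axis), in 4 groups of 24 libraries with the points of a group ordered from left to right by ZT; libraries at 0 are drawn as open triangles at the foot of the axis. Trem2, Gpnmb, Ccr2, Cd68 and Lyz2 on cdHFD lay above every chow library of the same genotype. The share of all genes that separate in this way is not given here.

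Trem2 encodes a lipid-sensing surface receptor of the immunoglobulin family (GRCm38.p6 chromosome 17, 48346401 to 48352276). Its lowest, median and highest level over 24 libraries was 0.210, 1.16 and 2.74 CPM in Hep-Bmal1WT on chow and 19.2, 30.6 and 47.4 CPM on cdHFD. In Hep-Bmal1KO it was 0.188, 0.952 and 3.17 CPM on chow and 25.2, 41 and 73.4 CPM on cdHFD. The diets did not overlap in either genotype. For this gene and those below, the share of all genes whose diets are likewise apart is not given here. The log2 difference between diets was 4.71 (SE 0.14, 26.2-fold, adjusted p = 7.7e-32) in Hep-Bmal1WT and 5.21 (SE 0.16, 37.1-fold, adjusted p = 4.2e-32) in Hep-Bmal1KO.

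Gpnmb encodes a transmembrane glycoprotein of lysosome-rich cells (chromosome 6, 49036518 to 49058182). Over 24 libraries it ran from 0.874 to 8.91 CPM with a median of 2.05 CPM in Hep-Bmal1WT on chow, and from 44.3 to 136 CPM with a median of 81.5 CPM on cdHFD. In Hep-Bmal1KO it ran from 0.346 to 3.78 CPM (median 2.03 CPM) on chow and from 58.3 to 275 CPM (median 153 CPM) on cdHFD. Again no cdHFD library reached down to the chow libraries of its genotype. Gpnmb had the largest diet difference of the 10 genes in each genotype, at a log2 of 5.17 (SE 0.16, 36-fold, adjusted p = 7e-32) in Hep-Bmal1WT and 6.34 (SE 0.18, 81-fold, adjusted p = 5e-33) in Hep-Bmal1KO.

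Ccr2 encodes the receptor by which monocytes follow the chemokine CCL2 (chromosome 9, 124101918 to 124109140). It was near the limit of detection on chow, where 6 of 24 Hep-Bmal1WT libraries and 2 of 24 Hep-Bmal1KO libraries had no count. The median was 0.470 CPM in Hep-Bmal1WT on chow (highest 1.88 CPM) and 7.36 CPM on cdHFD (5.69 to 11.5 CPM). In Hep-Bmal1KO the medians were 0.608 CPM on chow (highest 2.01 CPM) and 10.8 CPM on cdHFD (5.25 to 21.3 CPM). The diets were apart in both genotypes, with a log2 difference of 3.69 (SE 0.22, 12.9-fold) in Hep-Bmal1WT and 3.92 (SE 0.20, 15.1-fold) in Hep-Bmal1KO. At these low counts on chow the size of the fold is less certain than its direction.

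The 4 Kupffer genes rose less than the recruited ones. Clec4f, a C-type lectin receptor found on Kupffer cells (chromosome 6, 83644542 to 83656116), was at 32.8, 70.1 and 86.9 CPM (lowest, median, highest) in Hep-Bmal1WT on chow and at 92.7, 137 and 181 CPM on cdHFD. In Hep-Bmal1KO it was at 32.9, 64.5 and 102 CPM on chow and 65.8, 96.2 and 176 CPM on cdHFD. Its diets were apart in Hep-Bmal1WT and overlapped in Hep-Bmal1KO, where 10 of 24 cdHFD libraries lay above the highest chow library. The log2 difference was 1.03 (SE 0.072, 2.04-fold, adjusted p = 1.4e-17) in Hep-Bmal1WT and 0.74 (SE 0.10, 1.67-fold, adjusted p = 2e-08) in Hep-Bmal1KO. Timd4, the phosphatidylserine receptor TIM4 that binds dying cells (chromosome 11, 46810786 to 46844333), had medians of 7.38 and 11.1 CPM on chow and cdHFD in Hep-Bmal1WT and of 6.83 and 9.25 CPM in Hep-Bmal1KO. Its diets overlapped widely, with 2 and 3 of 24 cdHFD libraries above the highest chow library. The log2 difference of Timd4 was the smallest of the 10, 0.65 (SE 0.12, 1.56-fold, adjusted p = 1.5e-05) in Hep-Bmal1WT and 0.53 (SE 0.15, 1.45-fold, adjusted p = 0.0019) in Hep-Bmal1KO. In females alone it did not pass in either genotype (0.40, adjusted p = 0.053, and 0.24, adjusted p = 0.16).

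Vsig4, a complement receptor that captures opsonised particles (chromosome X, 96247201 to 96293438), had medians of 45.7 CPM on chow and 108 CPM on cdHFD in Hep-Bmal1WT. In Hep-Bmal1KO its medians were 42.8 and 93.5 CPM. In each genotype 20 of 24 cdHFD libraries exceeded the highest chow library, and the fold was 2.49 (log2 1.32, SE 0.12) and 2.52 (log2 1.33, SE 0.13). Marco is a class A scavenger receptor that binds bacteria and particles (chromosome 1, 120474538 to 120505024). It had the largest fold of the Kupffer genes, from a median of 6.49 to 40.6 CPM in Hep-Bmal1WT (log2 2.74, SE 0.21, 6.67-fold) and from 6.42 to 33.1 CPM in Hep-Bmal1KO (log2 2.62, SE 0.23, 6.14-fold). On cdHFD Marco ran from 21.3 to 154 CPM in Hep-Bmal1WT and from 18.4 to 117 CPM in Hep-Bmal1KO. The library at 154 CPM is 1 of the 7 nearer to the other genotype.

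The general macrophage genes had folds of 3.40 to 7.90, above those of Clec4f, Timd4 and Vsig4, on either side of those of Marco and under those of the 3 recruited genes. Adgre1, which encodes the F4/80 antigen (chromosome 17, 57358581 to 57483529), rose from a median of 12.2 to 49.9 CPM in Hep-Bmal1WT (log2 1.79, SE 0.12, 3.46-fold) and from 12.9 to 43.7 CPM in Hep-Bmal1KO (log2 1.76, SE 0.13, 3.40-fold). Its lowest cdHFD libraries overlapped the chow range in both genotypes. Cd68, a lysosomal membrane glycoprotein (chromosome 11, 69664213 to 69666170), rose from 10.9 to 74.5 CPM (log2 2.71, SE 0.096, 6.56-fold) and from 11.7 to 76.5 CPM (log2 2.94, SE 0.12, 7.66-fold), with no overlap. Lyz2, the lysozyme of macrophages and neutrophils (chromosome 10, 117277541 to 117282272), rose from 153 CPM (87.7 to 292) to 1060.3 CPM (476 to 1321) in Hep-Bmal1WT and from 161 CPM (61 to 304) to 1282 CPM (791 to 1792) in Hep-Bmal1KO. The diets were apart for Lyz2 as well, with log2 differences of 2.54 (SE 0.091, 5.81-fold) and 2.98 (SE 0.12, 7.90-fold). Its neighbouring paralog Lyz1 can share reads with it, which leaves the split between them uncertain. Lyz1 itself had medians of at most 1.62 CPM in the 4 groups.

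The scaling bears on the size of these values. With library totals in place of TMM factors, the median log2 difference of all genes between diets moved from 0.01 to 0.50 in Hep-Bmal1WT and from 0.02 to 0.50 in Hep-Bmal1KO, and the share of higher genes among those called moved from 51.5% to 88.8% and from 52.2% to 86%. All 10 genes were higher on cdHFD under both scalings. Under library totals Timd4 differed by 1.14 and Gpnmb by 5.66 on the log2 scale in Hep-Bmal1WT. The 10 hepatocyte genes moved the other way with diet, all 10 lower in each genotype, where library totals left 9 lower and 1 higher in Hep-Bmal1WT and 7 lower in Hep-Bmal1KO. Their summed share fell from a median of 15.5% to 7.71% in Hep-Bmal1WT and from 10.6% to 6.66% in Hep-Bmal1KO, and the part of this in the macrophage values was not tested.

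**Figure D2:**
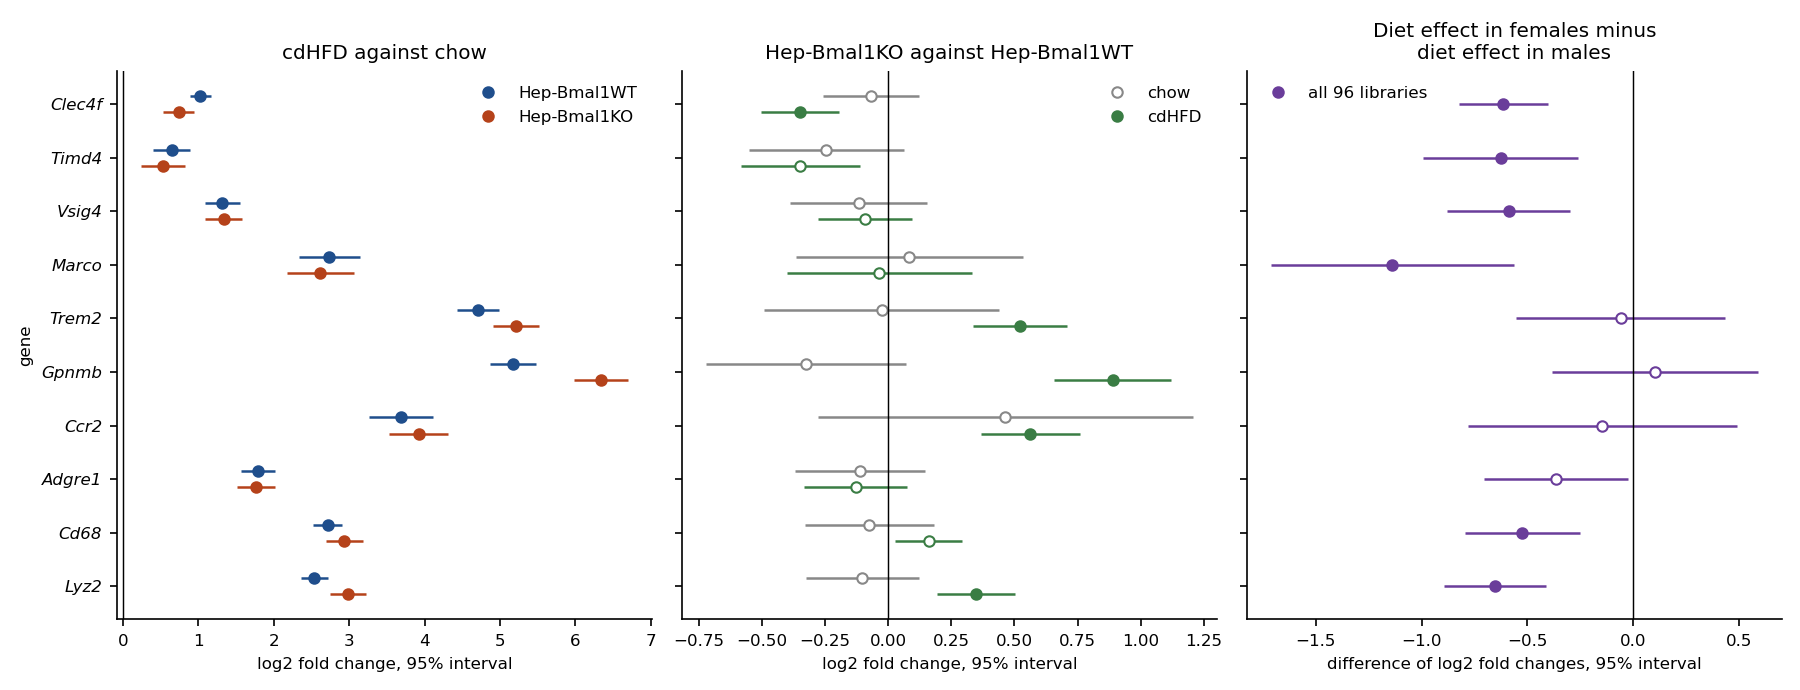
Log2 difference of each of the 10 genes between cdHFD and chow in each genotype and between Hep-Bmal1KO and Hep-Bmal1WT on each diet, and the difference between the diet effects of females and males, with 95% intervals; filled points passed an adjusted p under 0.05 and open points did not. All 10 were higher on cdHFD in both genotypes, none passed between genotypes on chow, and 5 passed between genotypes on cdHFD. For the difference between the diet effects of females and males 6 passed.

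Between the genotypes the 10 genes did not separate on chow. At an adjusted p under 0.05 edgeR called 0 of 10, where 7.0% of all genes were higher and 5.61% lower in Hep-Bmal1KO. It called 0 at an unadjusted p under 0.05 as well, where 3734 of the 15548 genes passed in either direction, and DESeq2 called 0. The 95% intervals of the log2 difference were narrow for Clec4f (-0.26 to 0.12), Lyz2 (-0.32 to 0.12) and Cd68 (-0.33 to 0.18). They were wider for the scarce genes, Trem2 (-0.49 to 0.44), Gpnmb (-0.72 to 0.07) and Ccr2 (-0.28 to 1.21). For Trem2 and Gpnmb the upper bound lay under the difference measured on cdHFD, a value with an error of its own. The test of whether the diet effect depended on genotype, given below, passed for Gpnmb and not for Trem2. For Ccr2 the difference on chow was 0.46 (adjusted p = 0.51), and the chow interval took in the 0.56 measured on cdHFD. The diet effect of Ccr2 was not shown to depend on genotype (0.28, adjusted p = 0.74). Leaving out the 7 doubted libraries gave 0 of 10 too.

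On cdHFD the genotypes differed in 5 of the 10 genes. Trem2, Gpnmb, Ccr2 and Lyz2 were higher in Hep-Bmal1KO and Clec4f was lower, against 4.62% of all genes higher and 4.99% lower. The 3 recruited and lipid-associated genes were thus all among those called. At 6 of 6 ZTs the mean of Trem2, Gpnmb, Ccr2 and Lyz2 was higher in Hep-Bmal1KO, and that of Clec4f and Timd4 was lower. These comparisons use the same cdHFD libraries as the diet comparisons above.

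Gpnmb differed most. Its median was 81.5 CPM in Hep-Bmal1WT and 153 CPM in Hep-Bmal1KO, and 16 of 24 Hep-Bmal1KO libraries lay above the highest Hep-Bmal1WT library. The ranges still overlapped, since the lowest Hep-Bmal1KO library was at 58.3 CPM. The log2 difference was 0.89 (SE 0.12, 1.85-fold, adjusted p = 1.3e-06), and the ratio of the means at single ZTs ran from 1.41 to 2.23. That lowest Hep-Bmal1KO library, replicate 1 at ZT14, is 1 of the 7 nearer to the other genotype. Without the 7 the difference of Gpnmb was 0.98. Males alone gave 0.83 (adjusted p = 0.0023) and females alone 0.84 (adjusted p = 0.00028).

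Ccr2 and Trem2 followed with smaller shifts. For Ccr2 the medians were 7.36 and 10.8 CPM, with 10 of 24 Hep-Bmal1KO libraries above the highest and 22 above the median of Hep-Bmal1WT. The groups overlapped, and the log2 difference was 0.56 (SE 0.10, 1.48-fold, adjusted p = 9.1e-05), or 0.59 without the 7 libraries. Trem2 had medians of 30.6 and 41 CPM, and 22 of 24 Hep-Bmal1KO libraries lay above the Hep-Bmal1WT median but only 7 above its highest library. Its log2 difference was 0.52 (SE 0.095, 1.44-fold, adjusted p = 0.00013), or 0.58 without the 7. Each of the 2 genes passed in males alone (0.56 for Ccr2 and 0.58 for Trem2) and in females alone (0.54 and 0.42).

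Lyz2 was higher in Hep-Bmal1KO by a log2 of 0.35 (SE 0.078, 1.27-fold, adjusted p = 0.002). Its medians were 1060.3 and 1282 CPM, and 11 of 24 Hep-Bmal1KO libraries exceeded the highest Hep-Bmal1WT library. The call passed in males alone (0.50, adjusted p = 0.0056) and not in females alone (0.19, adjusted p = 0.31). It was lost without the mice numbered replicate 2 (0.29, adjusted p = 0.067), most of which were male. Clec4f was lower by 0.35 (SE 0.078, adjusted p = 0.0018), with medians of 137 CPM in Hep-Bmal1WT and 96.2 CPM in Hep-Bmal1KO. Of 24 Hep-Bmal1KO libraries 9 lay below the lowest Hep-Bmal1WT library and 3 above the Hep-Bmal1WT median. Clec4f passed in females alone (-0.48, adjusted p = 0.00078) and not in males alone (-0.21, adjusted p = 0.33), and whether the sexes differ in this was not tested. Without the 7 libraries its difference was -0.38 and that of Lyz2 was 0.39.

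The other Kupffer genes and the remaining general genes did not pass on cdHFD. Timd4 was close, at -0.35 (SE 0.12, adjusted p = 0.054), and without the 7 libraries it passed (-0.38, adjusted p = 0.0094). Vsig4 was at -0.09 (95% interval -0.28 to 0.09) and Marco at -0.04 (-0.40 to 0.33). Cd68 was at 0.16 (0.03 to 0.29, adjusted p = 0.14) and Adgre1 at -0.13 (-0.33 to 0.07). In females alone Adgre1 passed as lower (-0.44, adjusted p = 0.02), while males alone had 0.16 (adjusted p = 0.53).

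Whether the diet effect itself depended on genotype was tested as an interaction, which asks if the log2 difference between diets differs between Hep-Bmal1KO and Hep-Bmal1WT. Of the 10 genes only Gpnmb passed, with a diet difference larger by 1.17 in Hep-Bmal1KO (SE 0.25, adjusted p = 0.002), against 0.817% of all genes with a higher and 1.41% with a lower value. It compares fold changes over chow libraries in which Gpnmb had medians of 2.05 and 2.03 CPM and means of 2.49 and 1.93 CPM. The genotype difference on chow, which did not pass, was -0.33 (adjusted p = 0.35). On chow it was 0.01 in males alone and -0.76 in females alone (adjusted p = 0.24), where 1 Hep-Bmal1WT library was at 8.91 CPM. The interaction was 0.79 in males alone (adjusted p = 0.18) and 1.52 in females alone (adjusted p = 0.051), so neither sex passed by itself. Lyz2 had 0.44 (adjusted p = 0.084) and passed without the 7 libraries (0.51, adjusted p = 0.032). It also passed in males alone (0.66, adjusted p = 0.037) and not in females alone (0.26, adjusted p = 0.52). Trem2 had 0.50 (95% interval 0.02 to 0.98, adjusted p = 0.30) and Clec4f -0.29 (-0.54 to -0.04, adjusted p = 0.24). A smaller diet effect of Clec4f in Hep-Bmal1KO was thus not shown at the threshold, although its genotypes differed on cdHFD.

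With library totals in place of TMM the share of higher genes among those called for genotype moved from 55.5% to 75.9% on chow and from 48.1% to 66.6% on cdHFD. The direction of the 5 called members was the same under both scalings.

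The diet effect also depended on sex. For Clec4f, Timd4, Vsig4, Marco, Cd68 and Lyz2 the log2 difference between diets, over both genotypes, was smaller in females than in males at an adjusted p under 0.05. These 6 of 10 stand against 3.97% of all genes with a smaller and 3.03% with a larger value in females. All 4 Kupffer genes were among them, and Trem2, Gpnmb and Ccr2 were not.

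For Clec4f on chow, 24 males had a lowest, median and highest level of 32.8, 58.2 and 80.5 CPM and 24 females one of 51.9, 75.2 and 102 CPM. On cdHFD the medians were 123 CPM in 25 males (85.5 to 176) and 113 CPM in 23 females (65.8 to 181). This pools both genotypes: females had the higher median in Hep-Bmal1WT on cdHFD (138 against 133 CPM) and the lower one in Hep-Bmal1KO (93.1 against 109 CPM). The interaction was -0.61 (SE 0.11, adjusted p = 1.6e-05), and Clec4f was the only gene of the 6 that stayed called under all 14 alternative settings. Its diet difference was 1.26 in males and 0.86 in females of Hep-Bmal1WT, and 1.17 and 0.38 in Hep-Bmal1KO.

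Marco had the largest interaction, -1.14 (SE 0.29, adjusted p = 0.0065). The median of Marco was 4.44 CPM in males and 7.07 CPM in females on chow and 43.2 and 31.8 CPM on cdHFD. The sexes overlapped on both diets. In Lyz2 the interaction was -0.65 (SE 0.12, adjusted p = 7.6e-05), with medians of 136 CPM in males and 199 CPM in females on chow against 1195 and 1109 CPM on cdHFD. In Marco and Lyz2 females had the higher median on chow and males the higher one on cdHFD in each genotype, although in Lyz2 the cdHFD medians of Hep-Bmal1WT were close (1063 CPM in males and 1058 CPM in females).

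Timd4 had an interaction of -0.63 (SE 0.19, adjusted p = 0.023), with medians of 5.68 CPM in males and 7.64 CPM in females on chow and 11.1 and 9.17 CPM on cdHFD. Vsig4 had -0.59 (SE 0.15, adjusted p = 0.0053) and medians of 49.7 CPM in females against 30.4 CPM in males on chow and of 109 against 96.6 CPM on cdHFD, where in Hep-Bmal1KO alone males had the higher median (98.1 against 86.4 CPM). For Cd68 the value was -0.52 (SE 0.14, adjusted p = 0.0092), with medians of 9.01 and 12.3 CPM on chow and 74.9 and 75.8 CPM on cdHFD in males and females. Adgre1 leaned the same way without passing (-0.36, 95% interval -0.70 to -0.03, adjusted p = 0.22). In the recruited class the interaction was -0.06 for Trem2 (-0.55 to 0.43), 0.10 for Gpnmb (-0.38 to 0.59) and -0.15 for Ccr2 (-0.78 to 0.49). These intervals are wide, and the chow counts of the 3 genes are low.

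These calls were not equally firm. Leaving out each replicate number in turn left between 1 and 6 of the 6, thinning all libraries to 1861740 reads left 3, and leaving out ZT10 left 3 (Clec4f -0.56, Marco -1.18 and Lyz2 -0.61). The replicate numbers mostly followed sex, so leaving 1 out removed mice mostly of 1 sex. Averaged over the diets, Vsig4 was higher in females by 0.33 (SE 0.080, adjusted p = 0.0014) and Lyz2 by 0.20 (SE 0.070, adjusted p = 0.04), against 8.39% of all genes higher and 7.72% lower in females. Markers of other cells were higher in females too, 7 of 8 endothelial genes, 5 of 10 of T and NK cells, 3 of 8 of stellate cells and 3 of 9 of dendritic cells, and their part in the values of Vsig4 and Lyz2 was not tested.

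**Figure D3:**
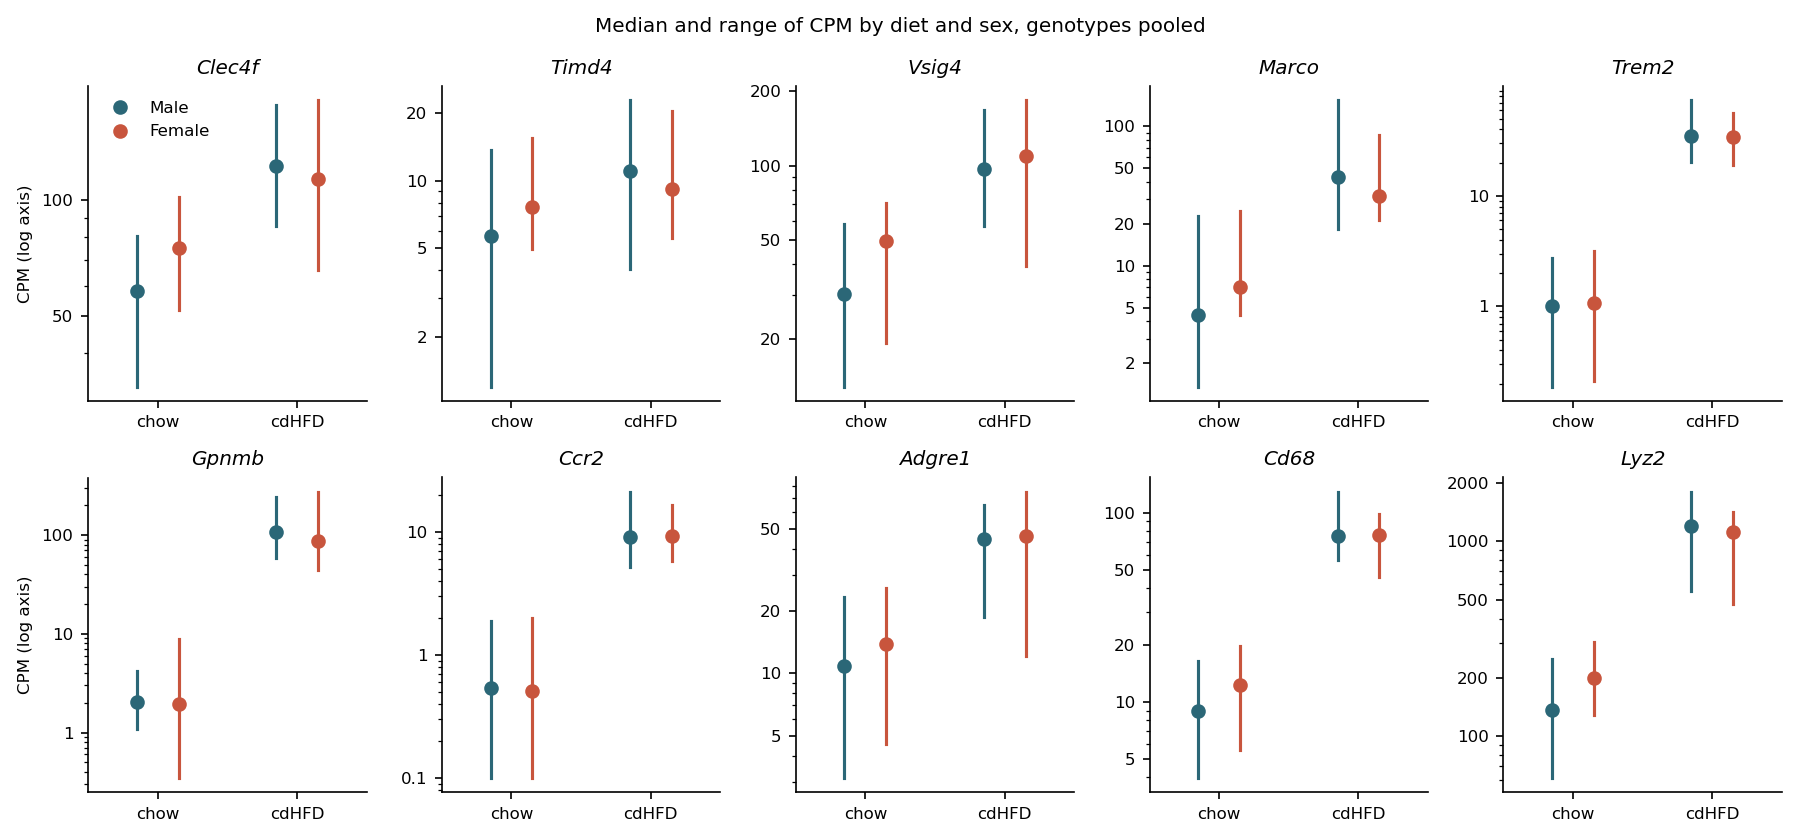
Level of the 10 genes (CPM, log axis) in males and females on chow and on cdHFD over both genotypes, with a point at the median and a line from the lowest to the highest library (values of 0 are drawn at the foot of the Ccr2 axis). Medians of Clec4f, Timd4, Marco and Lyz2 are higher in females on chow and higher in males on cdHFD.

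Over the day, rhythms with a period of 24 h were tested within each group of 24 libraries, and few of the 10 genes passed. In Hep-Bmal1WT on chow 2 of the 10 passed, against 19.1% of all genes. Cd68 had an amplitude of 0.42 on the log2 scale (SE 0.11, adjusted p = 0.031) with its peak at ZT 17.9, and Lyz2 one of 0.36 (SE 0.11, adjusted p = 0.039) with its peak at ZT 19.8. In Hep-Bmal1WT on cdHFD only Clec4f passed, with an amplitude of 0.24 (SE 0.053, adjusted p = 0.018) and a peak at ZT 22.3, against 14.6% of all genes. The share among the members was thus near or under that of all genes in both groups.

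In Hep-Bmal1KO edgeR called 0 of 10 as rhythmic on chow, where 4.34% of all genes passed, and 0 of 10 on cdHFD, where 3.83% passed. At an unadjusted p under 0.05 these were 4 and 1, and DESeq2 called 0 on either diet. The shares of all genes at that unadjusted threshold are not given, here or for the differences in rhythm below. The unadjusted counts can therefore not be set against the percentages. The difference in rhythm between diets was called for 0 of 10 in Hep-Bmal1WT (6.19% of all genes) and for 0 of 10 in Hep-Bmal1KO (0.907%), with 2 and 2 at an unadjusted p under 0.05. The difference in rhythm between genotypes was called for 0 of 10 on chow (0.392% of all genes) and for 0 of 10 on cdHFD (0.424%), with 0 and 0 at an unadjusted p under 0.05, and DESeq2 called 0 in these 4 tests. A loss of the Cd68, Lyz2 or Clec4f rhythm with genotype or diet was therefore not shown.

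The 3 rhythm calls were each lost under several settings. Without ZT10 the adjusted p was 0.093 for Cd68, 0.28 for Lyz2 and 0.36 for Clec4f. With sex as a covariate, on the other hand, Vsig4 (adjusted p = 0.019), Cd68 (0.026) and Lyz2 (0.026) passed in Hep-Bmal1KO on chow. Vsig4 passed with this covariate in Hep-Bmal1WT on chow too (adjusted p = 0.0044). In males alone of Hep-Bmal1WT on chow, Clec4f (adjusted p = 0.049), Vsig4 (0.0086) and Adgre1 (0.012) passed. Cd68 (0.091) and Lyz2 (0.07) did not pass in these males.

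**Figure D4:**
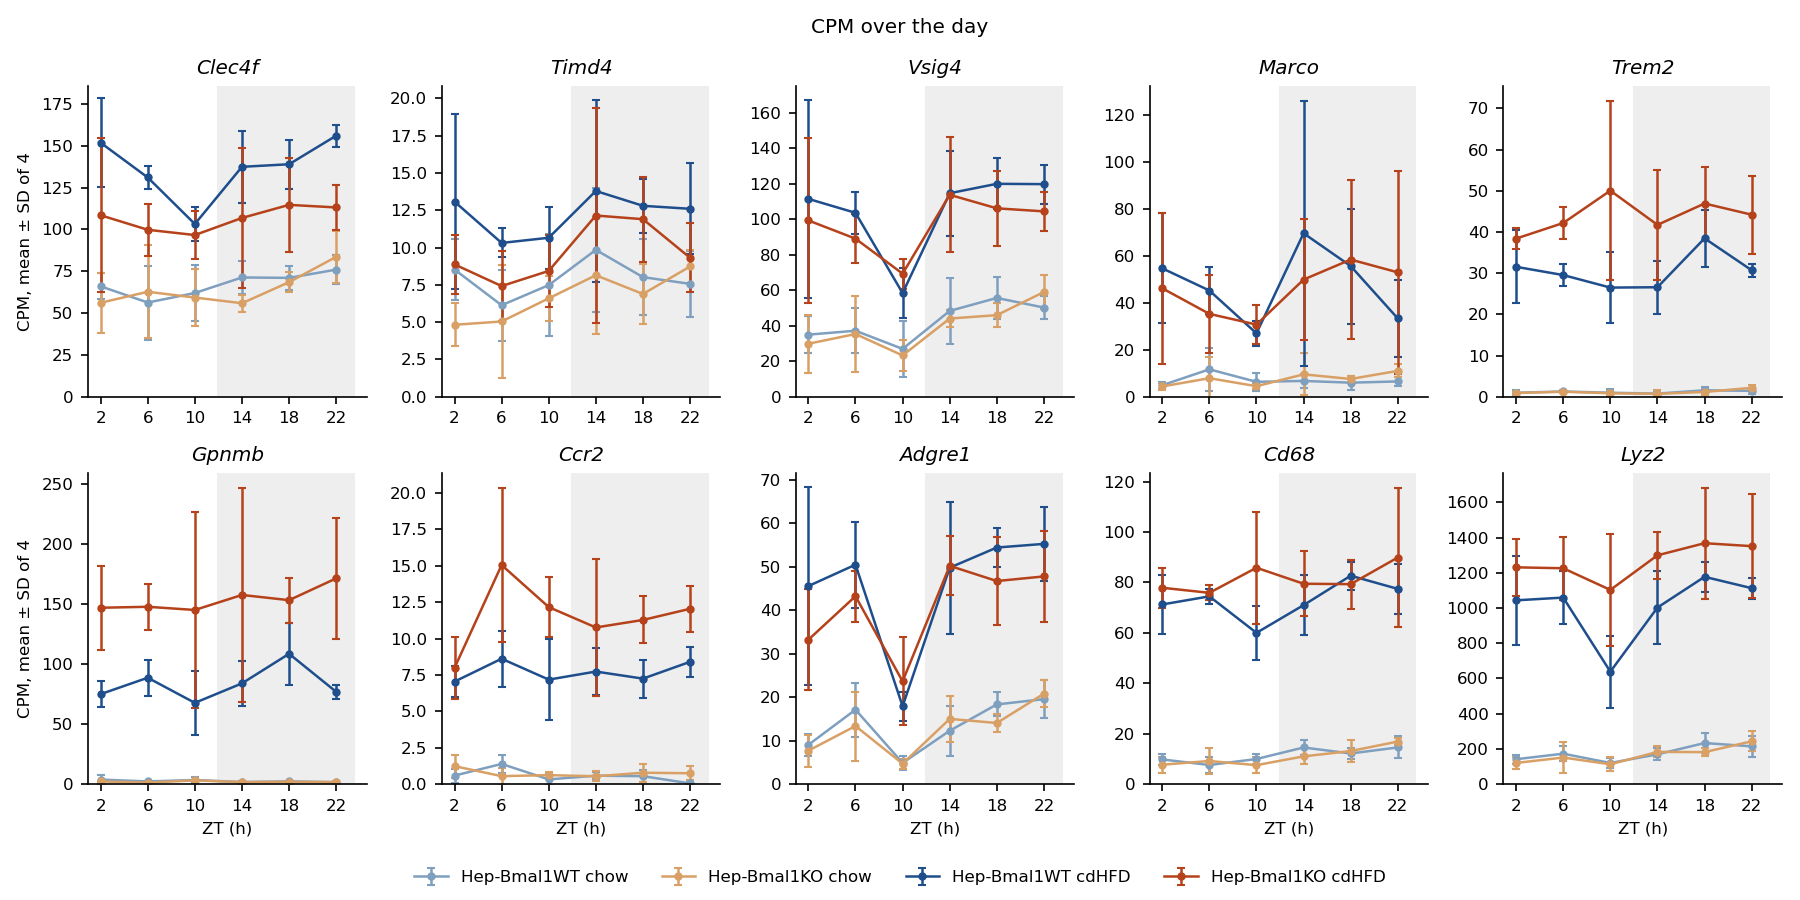
Mean level of each of the 10 genes at each ZT (CPM, bars are the SD over 4 mice) in the 4 groups, with the dark hours shaded. Adgre1, Vsig4 and Lyz2 have their lowest mean at ZT10 in all 4 groups.

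ZT10 stood apart for 3 of the genes. Vsig4, Adgre1 and Lyz2 had their lowest mean at ZT10 in all 4 groups. Adgre1 in Hep-Bmal1WT on cdHFD was at 21.3, 18.8, 18 and 13.5 CPM in the 4 mice at ZT10 against means of 45.6 to 55.3 CPM at the other ZTs, so that these 4 mice lay below all others of the group. In Hep-Bmal1KO on cdHFD the 4 values of Adgre1 at ZT10 were 25, 36.5, 21.0 and 12.2 CPM, which overlapped other ZTs. Its ZT10 mean was 0.318 to 0.535 of the mean of the other ZTs over the 4 groups, that of Vsig4 0.513 to 0.676 and that of Lyz2 0.592 to 0.852.

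The same held for many genes outside the list. Over all 15548 genes, 1392 (8.95%) were lowest at ZT10 in all 4 groups, against 27 to 75 genes at each of the other ZTs. The summed endothelial markers were at 0.740 to 0.769 of the other ZTs, while the hepatocyte markers were at 0.987 to 1.21 and the 3 recruited genes together at 0.806 to 1.22. A list of 12 other Kupffer genes was at 0.750 to 1.02 and lowest at ZT10 in 2 of the 4 groups. A list of 16 other general macrophage genes was at 0.823 to 1.02 and lowest there in 1 group. The median share of reads without a gene was 9.47% at ZT10 and at most 8.20% at any other ZT. Each ZT and group had its own wells, so time and well position cannot be told apart, and the part of these shares in the ZT10 levels was not tested.

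To see which of the genes varied together from mouse to mouse, the mean of each of the 24 groups of genotype, diet and ZT was removed from the log2 CPM. What is left are deviations between mice of 1 group, which share library depth and composition. Sex was not removed, so differences between males and females are part of them. On cdHFD, over 48 libraries, the 3 recruited genes correlated with each other at a Pearson's r of 0.514 to 0.843. The closest pair was Trem2 and Gpnmb (r = 0.843, and 0.736 over the 44 libraries left without the 4 that go against a label). With sex removed as well, this pair had 0.839, and Clec4f and Timd4 went from 0.623 to 0.594. The 6 pairs of Kupffer genes had 0.459 to 0.661. Between the Kupffer and the recruited genes the 12 values ran from -0.313 to 0.0530.

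The general genes differed among themselves. On cdHFD their 9 values with the recruited genes ran from 0.158 to 0.730 (median 0.368) and their 12 values with the Kupffer genes from 0.0724 to 0.773 (median 0.327). Cd68 and Lyz2 had r of 0.730 and 0.722 with Trem2 and of 0.714 and 0.635 with Gpnmb, whereas Adgre1 had 0.158 to 0.287 with the 3 recruited genes and 0.773 with Vsig4. On chow the Kupffer pairs had r of 0.650 to 0.819 and the general and Kupffer genes 0.589 to 0.858. Over both genotypes females had the higher medians of these genes on chow, and the part of sex in these values was not tested. The recruited pairs had -0.283 to 0.0256 there and the general and recruited genes -0.219 to 0.0857, where the recruited counts are too low for a correlation to be read.

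Among the 9000 genes with a mean of at least 5 CPM, those most like the Kupffer and general members over all 96 libraries were mostly other macrophage genes. Clec4f was nearest to Cd5l (r = 0.765), a secreted Kupffer cell protein, and to the ficolin gene Fcna (0.745). Vsig4 was nearest to the complement gene C1qc (0.820), as was Adgre1 (0.782), and Lyz2 to C1qb (0.840). Timd4 (0.622), Marco (0.682) and Cd68 (0.718) each had Cd5l as their nearest gene. The recruited members had lower values over the 96 libraries, with Cln3 nearest to Trem2 (0.465), the cathepsin D gene Ctsd nearest to Gpnmb (0.496) and Il10rb nearest to Ccr2 (0.458). On cdHFD alone, a choice made after the values were seen, Lgals3 was nearest to both Trem2 (r = 0.835) and Gpnmb (0.843). It encodes galectin-3, a lectin of lipid-laden macrophages. Ccr2 was nearest there to Flna (0.691) and to the collagen genes Col4a1 (0.685) and Col1a2 (0.682).

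Other genes were taken from lists named for the same cells, each described by its counts and its median. Which cells of the whole liver made the RNA of each listed gene was not tested. For diet in Hep-Bmal1WT the median log2 difference of all genes was 0.01. Of 12 other Kupffer genes 9 rose with diet in Hep-Bmal1WT (median 1.60), led by Cd5l, which went from a median of 79.8 to 411 CPM (log2 2.42, SE 0.084), and by C1qb, from 85.9 to 337 CPM (2.02, SE 0.091). Cd163, the haemoglobin scavenger receptor, did not pass (-0.26, adjusted p = 0.15), nor did Fcna (0.10, adjusted p = 0.33) or Cd207 (-0.04, adjusted p = 0.87). In Hep-Bmal1KO 10 of the 12 were higher and 1 was lower, and under library totals 11 were higher and 0 lower.

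Of 14 other lipid-associated genes 13 rose and 1 fell in Hep-Bmal1WT (median 1.77). Mmp12, a macrophage elastase, went from a median of 1.72 to 131 CPM (log2 6.12, SE 0.13, 69.4-fold), Lgals3 from 19.3 to 329 CPM (4.20, SE 0.086) and the tetraspanin gene Cd63 from 6.63 to 92.1 CPM (3.85, SE 0.10). The fatty acid binding protein gene Fabp5 fell by 1.03. Between the genotypes on cdHFD 11 of these 14 were higher in Hep-Bmal1KO, against 4.62% of all genes, and the median was 0.41, beside 0.01 for all genes. They included Spp1 (1.22, adjusted p = 1.7e-06), the osteopontin gene, Lpl (0.83, adjusted p = 3.5e-07), the lipoprotein lipase gene, and Lgals3 (0.50, adjusted p = 1.1e-05). On chow, where Trem2 and Gpnmb did not pass, 6 of the 14 were higher in Hep-Bmal1KO against 7.0% of all genes, with Lpl at 2.99, Atp6v0d2 at 1.46, Cd9 at 0.999 and Spp1 at 0.68. Lgals3 (-0.10), Mmp12 (0.20), Itgax (-0.47) and Clec7a (-0.16) did not pass there. In the genotype by diet interaction 3 of the 14 passed, against 0.817% of all genes higher and 1.41% lower. It was positive for Lgals3 (0.59, adjusted p = 0.0012) and negative for Lpl (-1.94, adjusted p = 0.00044) and Cd9 (-0.53, adjusted p = 0.037).

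**Figure D5:**
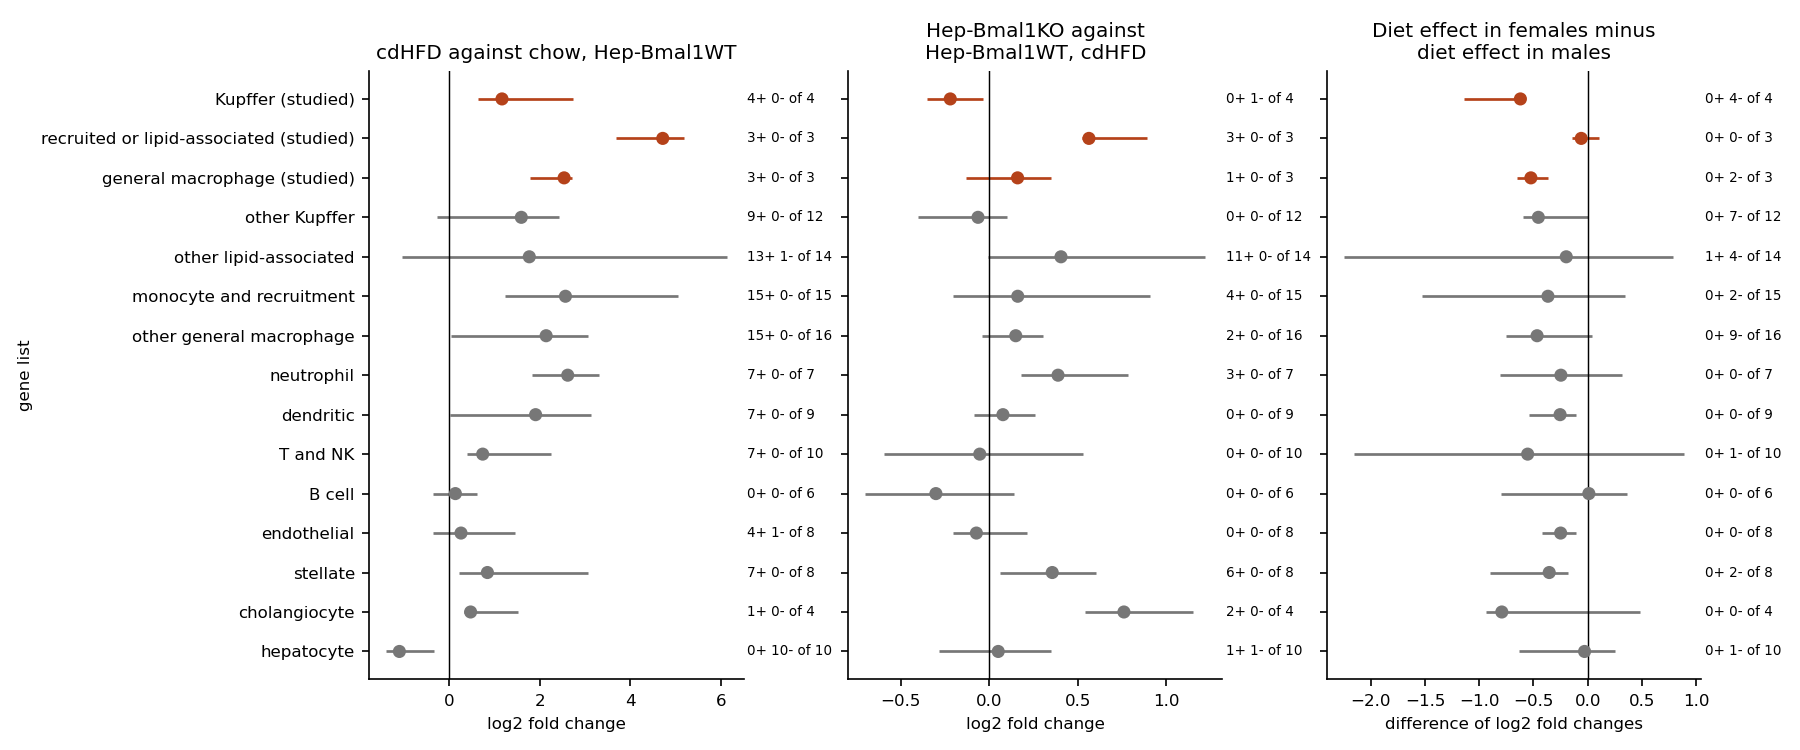
Log2 differences of the genes of each list for diet in Hep-Bmal1WT, for genotype on cdHFD, and between the diet effects of females and males, with a point at the list's median and a line from its lowest to its highest gene; beside each line stands how many genes were higher (+) and lower (-) at an adjusted p under 0.05. On cdHFD the other lipid-associated genes have a median of 0.41 between genotypes and the other Kupffer genes one of -0.06.

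Of 15 genes of monocytes and their recruitment all 15 rose with diet in Hep-Bmal1WT (median 2.57) and all 15 in Hep-Bmal1KO (median 2.67). The CCR2 ligand gene Ccl2 went from a median of 1.195 to 26.8 CPM in Hep-Bmal1WT (log2 4.20, SE 0.16), and between genotypes on cdHFD it did not pass (0.24, adjusted p = 0.087). On cdHFD 4 of the 15 were higher in Hep-Bmal1KO, against 4.62% of all genes. They were Chil3 (0.91, adjusted p = 0.00012), Cx3cr1 (0.72, adjusted p = 0.0087), Cx3cl1 (0.71, adjusted p = 0.0028) and Ccr1 (0.50, adjusted p = 0.014). Of 16 other general macrophage genes 15 rose with diet in Hep-Bmal1WT (median 2.14), with Tyrobp, a signalling partner of TREM2, going from 34.9 to 203 CPM. Between genotypes on cdHFD 2 of these 16, Ctss (0.31) and Cd53 (0.22), were higher in Hep-Bmal1KO, against 4.62% of all genes.

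Listed genes other than the 10 also had smaller diet effects in females. Of the 12 other Kupffer genes 7 had a smaller diet effect in females (list median -0.45, beside -0.03 for all genes), and so had 9 of the 16 other general genes (median -0.47). Of the 14 other lipid-associated genes 4 were smaller and 1 was larger (median -0.20), and of the 15 recruitment genes 2 were smaller (median -0.37). Lists of other cells had medians on the same side, with 2 of 8 stellate cell genes smaller (median -0.35), 1 of 10 genes of T and NK cells (-0.55), 0 of 8 endothelial genes (-0.25, with 5 at an unadjusted p under 0.05) and 0 of 4 cholangiocyte genes (-0.79, with 2). Over all 15548 genes 3113 passed at that unadjusted p in either direction. Of 10 hepatocyte genes 1 was smaller, the albumin gene Alb (-0.64, adjusted p = 9.4e-05), with a list median of -0.03. Whether the macrophage lists differ from these was not tested.

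Markers of other cells moved with the diet as well, beside 28.7% of all genes higher and 27.0% lower in Hep-Bmal1WT. Between genotypes on cdHFD 4.62% of all genes were higher and 4.99% lower in Hep-Bmal1KO. Of 8 neutrophil genes listed 7 were tested, and Ly6g was not among the genes that passed the count filter. All 7 rose in Hep-Bmal1WT (median 2.62), with a summed level of 4.85 to 29.2 CPM on chow and 56.2 to 114 CPM on cdHFD. On cdHFD 3 of the 7 were higher in Hep-Bmal1KO (S100a8, S100a9 and Mmp8). Lyz2 is also made by neutrophils, and their part in its values was not tested. Of 9 dendritic cell genes 7 rose, and of 10 genes of T and NK cells 7. Of 8 stellate cell genes 7 rose in Hep-Bmal1WT (median 0.85), and 6 of the 8 were higher in Hep-Bmal1KO on cdHFD, among them Col1a1 (0.60, adjusted p = 0.016) and Col3a1 (0.49, adjusted p = 0.011). Of 4 cholangiocyte genes 2 were higher in Hep-Bmal1KO on cdHFD, Epcam (1.15, adjusted p = 0.00027) and Sox9 (0.68, adjusted p = 0.00015). On chow Sox9 was higher in Hep-Bmal1KO as well (1.06, adjusted p = 0.00012). Of 8 endothelial genes 4 rose and 1 fell with diet in Hep-Bmal1WT, while under library totals 7 were higher and 0 lower. Of 6 B cell genes 3 fell in Hep-Bmal1KO, where 29.6% of all genes were lower, and under library totals 1 was higher and 1 lower.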

How the data were processed

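Whole-liver RNA of 96 mice was measured by BRB-seq. The authors deposited whole-number read counts per gene and library, aligned to mm10. Per the labels STAR, HTSeq, featureCounts and DESeq2 were used, with versions not given in the sources used here, and whether reads sharing a molecular identifier were collapsed is not stated. Intervals therefore cover the spread between libraries and counting error only. The 5 entries for unassigned reads were left out of library sizes. They include unaligned reads, a median 18.1% per library, and reads on no gene, 7.93%.

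Samples were grouped by the labelled genotype, diet, ZT and sex. Counts were scaled by TMM and tested with the quasi-likelihood test of edgeR 4.0.16 (R 4.3.3) on the 15548 genes with at least 100 counts in all. Diet and genotype were compared with ZT in the model, rhythms by a cosine and sine term of 24 h, and interactions by the product of terms. A gene was called at a Benjamini-Hochberg adjusted p under 0.05 over all genes. The SE is the log2 fold change divided by the root of the F statistic. Log2 CPM used a prior count of 2. The alternatives were DESeq2 1.42.0, other scalings and filters, thinning, each replicate number left out, each sex alone, sex as a covariate, and sets of doubted libraries left out. p-values cover the spread between single mice. The edgeR steps were tested on simulated data with 200 changed genes among 15548. For a log2 change of 1 the diet test in Hep-Bmal1WT recovered 151 with 10 false calls. For a cosine with a log2 amplitude of 1 the rhythm test in Hep-Bmal1WT on chow recovered 145 with 6. Amplitudes as small as those of the members called rhythmic were not simulated.

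The 10 members and the other gene lists were chosen with earlier results of these data known. By rule the text names the 10 members, Arntl, Lyz1, for each list up to 3 genes of smallest p for diet in Hep-Bmal1WT, and for each member up to 3 genes most like it, and other listed genes were named after their values were seen. Positions come from the RefSeq annotation of GRCm38.p6.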

Additional observations from a re-analysis of the deposited data

Results flagged for a closer look

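Within each of the 240 sets of 4 mice of 1 genotype, diet and ZT (10 genes in 24 groups), the highest or lowest library was checked for a gap to its nearest neighbour that, as a share of the range of the 4, was above Dixon's 95% critical value. This held for 20 of the 240 sets, and chance alone sets a library apart in about 1 in 20. All values are CPM with the nearest library after them, and their cause was not tested.

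In the Kupffer class, Clec4f was at 118 in Hep-Bmal1KO on cdHFD at ZT10, replicate 1 (nearest 90.2), and Timd4 at 22.9 in Hep-Bmal1WT on cdHFD at ZT14, replicate 1 (11.5). Marco was at 154 in that same ZT14 library (43.2), which is 1 of the 7 nearer to the other genotype, at 94.1 in Hep-Bmal1KO on cdHFD at ZT2, replicate 3 (31.8), and at 117 in Hep-Bmal1KO on cdHFD at ZT22, replicate 2 (38.3). Vsig4 was at 50.7 in Hep-Bmal1WT on chow at ZT2, replicate 4 (31), at 59.6 at ZT22, replicate 3 (47.7), and low at 35.7 in Hep-Bmal1KO on chow at ZT18, replicate 1 (48.7).

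Among the recruited genes, Trem2 was at 1.68 in Hep-Bmal1KO on chow at ZT10, replicate 2 (0.641), and at 1.94 at ZT14, replicate 4 (0.464). Ccr2 was at 0.183 in Hep-Bmal1WT on chow at ZT22, replicate 4, where the other mice had no count. On cdHFD Ccr2 was at 11.5 in Hep-Bmal1WT at ZT6, replicate 3 (7.92), at 11.3 at ZT10, replicate 2 (5.86), and at 13.7 in Hep-Bmal1KO at ZT18, replicate 3 (10.6). Gpnmb and Lyz2 had no such library.

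Of the general genes, Adgre1 was low at 5.35 in Hep-Bmal1WT on chow at ZT2, replicate 3 (9.85), and at 13.2 at ZT22, replicate 4 (20.9). It was high at 17.3 in Hep-Bmal1KO on chow at ZT18, replicate 3 (13.1), and at 50.6 in Hep-Bmal1KO on cdHFD at ZT2, replicate 3 (28.7), the mouse whose Marco was also set apart. Cd68 was low at 74.2 in Hep-Bmal1WT on cdHFD at ZT18, replicate 3 (85.4), and high at 98.6 in Hep-Bmal1KO on cdHFD at ZT14, replicate 4 (75.8).

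Diet effects that differed between groups by an interaction test were those of Gpnmb between genotypes, larger in Hep-Bmal1KO by 1.17 on the log2 scale, and of 6 genes between sexes. The female minus male difference was -0.614 for Clec4f, -0.627 for Timd4, -0.589 for Vsig4, -1.14 for Marco, -0.524 for Cd68 and -0.654 for Lyz2.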

How the results depend on the processing

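Of 2700 values of single members under alternatives, 2566 kept their direction and their side of the threshold, 61 lost and 35 gained a call, and 38 changed sign without a call on either side, in 7 genes. No called value changed sign. Of the 10 diet calls in each genotype 9 held under all alternatives, the exception being Timd4 in females alone. Of the 5 genotype calls on cdHFD 3 did (Trem2, Gpnmb and Ccr2), and leaving out each replicate number in turn left 4 to 5 calls. The genotype by diet count of 1 became 2 without the 7 doubted libraries, 2 without these and the library of unclear sex, and 0 in females alone. In males alone it stayed 1, with Lyz2 in place of Gpnmb. Over all genes that count was 347, and 817 without the 7 libraries, 127 without ZT10 and 71 in females alone.

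The rhythm count in Hep-Bmal1WT on chow, 2, became 0 under library totals, without the 7 libraries, without these and the library of unclear sex, in females alone and without ZT10, 1 when thinned and 1 by a cosinor test on log2 CPM, and 0 to 1 without 1 replicate number. In this group Vsig4 gained a call by DESeq2, without the filter, when thinned, with sex as a covariate and in males alone. Clec4f and Adgre1 gained one in males alone. In Hep-Bmal1WT on cdHFD, 1 became 2 by DESeq2, 4 without the filter, 2 when thinned, 2 without the 7 libraries, 2 without these and the library of unclear sex, 0 in males, 0 in females and 0 without ZT10, and 0 to 2 without 1 replicate number. In Hep-Bmal1KO on chow, 0 became 3 with sex as a covariate, 3 in males alone and 1 at an unadjusted p under 0.01. For the difference in rhythm between diets in Hep-Bmal1WT, 0 became 1 without ZT10 (Ccr2). The sex count of 2 became 1 under library totals, when thinned, without the 7 libraries, without these and the library of unclear sex, and without ZT10, and 1 to 2 without 1 replicate number. The diet by sex count of 6 became 3 when thinned, 3 without ZT10 and 1 to 6 without 1 replicate number. The cause was not tested. Leaving out ZT10, the library of unclear sex, or that library with the 7 was chosen after seeing the data. No paired analysis was possible because the replicate numbers follow the order of the samples and pair no mice. These numbers also mostly follow sex, so leaving 1 out removes mice mostly of 1 sex.

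Depth limited Trem2, Gpnmb and Ccr2 on chow, where a library held few reads of each.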

Other observations

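Of the 7 libraries nearer to the other genotype, 3 were on cdHFD, and the Gpnmb level of each lay outside that of the other mice of its group and ZT, towards the other genotype. In Hep-Bmal1WT it was 105.7 CPM in replicate 3 at ZT10, where the other mice had 44.35 to 62.71 CPM, and 102.1 CPM in replicate 1 at ZT14, where they had 66.53 to 98.44 CPM. In Hep-Bmal1KO it was 58.33 CPM in replicate 1 at ZT14, where they had 143.2 to 274.7 CPM. Gpnmb was not kept out of the genotype-dependent genes from which these libraries were found, so its level is no independent check.

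Lyz1, the paralog beside Lyz2 (GRCm38.p6 chromosome 10, 117287795 to 117292868), had medians of 0.0626 CPM on chow and 1.03 CPM on cdHFD in Hep-Bmal1WT and of 0.169 and 1.62 CPM in Hep-Bmal1KO. Its log2 difference between diets was 1.71 (SE 0.42) in Hep-Bmal1WT and 2.72 in Hep-Bmal1KO.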
